A study of Mus musculus with 20 samples.

Results

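Annexins are cytosolic proteins that bind negatively charged phospholipids when calcium rises, through a conserved core of repeats, and each has its own N-terminal tail that sets its partners, among them S100 and penta-EF-hand proteins. They take part in membrane repair, vesicle traffic, plasminogen binding at the cell surface and the control of inflammation. In liver they are known from hepatocytes (Anxa6), from epithelia of the ducts (Anxa4) and from resident and infiltrating leukocytes (Anxa1, Anxa3). The family was described here through 10 genes, Anxa1 to Anxa8, Anxa11 and Anxa13. Each gene was read by 1 probe set (a group of short probes for 1 transcript), chosen by its mean log2 level over all 20 arrays as the brightest of those that the array's annotation ties to 1 gene only, and 9 of the 10 genes had one, among 18193 genes on the array. The 9 genes together had 20 probe sets. The same probe set was brightest for 9 of 9 genes when the 15 arrays outside the knockout very low fat group were used. The only probe set of Anxa11 also names Gm2274 and Gm2260, so no value is given for Anxa11. The genes are named by family and not by a threshold, but the family was taken up with results of these data known, so its counts are read beside the counts over all genes.

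The livers came from mice lacking Scd1 (Scd1-/-), the enzyme that makes monounsaturated from saturated fatty acids, and from wild-type mice, each on chow or on a very low fat (VLF) diet, TD03045 from Harlan Teklad. Each of the 4 groups held 5 numbered replicates, taken here as individual livers, which makes 20 arrays of Affymetrix Mouse 430 2.0. Both genotypes were kept on both diets, so the wild type on chow carries neither the deletion nor the diet. The labels used here give no strain, sex, age or length of feeding and do not name the tissue in which Scd1 was deleted. The study looked for changes particular to the knockout mice on the VLF diet.

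Deposited Scd1 signals were 6522 to 20108 in the wild-type livers and 25.9 to 57.4 in the knockout livers, so no library went against its genotype. Hepatocyte markers summed to between 92903 and 100609 on every array. Quantile normalisation gives every array the same set of values, so a sum of such bright genes can move little. It does not measure hepatocyte content. In knockout livers on the VLF diet 42.1% of all genes differed from the wild type on that diet (limma adjusted p under 0.05). The ratio of the 3′ to the 5′ β-actin control probe sets, a measure of RNA integrity and labelling, was 1.69 to 1.96 in knockout livers on the VLF diet and 1.95 to 3.07 in the other groups. For the Gapdh control the ratio was 1.25 to 1.35 in knockout livers on the VLF diet and 1.23 to 1.41 in the wild type on that diet. On chow it was 1.33 to 1.40 in the knockout and 1.42 to 1.71 in the wild type. The part of these ratios in the results was not tested.

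Promoter sequence was available from RefSeq (GRCm38.p6) for 7 of the 10 genes in 9 windows, and not matched for Anxa3, Anxa6 and Anxa13. Shown are Anxa2 and Anxa5 because their levels followed each other most closely over the arrays and both rose, and Anxa8 because it was dim and not called. Each is the 250 bases before the transcript start, 5′ to 3′ on the gene's strand, with capitals marking a match to TGANTCA, the AP-1 motif, searched on both strands. They lie at chr9:69453433-69453682 (plus strand), chr3:36475888-36476137 (minus strand) and chr14:34085729-34085978 (plus strand).
Anxa2: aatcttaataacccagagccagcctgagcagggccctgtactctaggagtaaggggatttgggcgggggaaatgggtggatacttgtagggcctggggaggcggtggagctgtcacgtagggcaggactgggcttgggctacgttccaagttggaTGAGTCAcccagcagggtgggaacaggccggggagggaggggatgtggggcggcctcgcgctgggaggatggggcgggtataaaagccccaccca
Anxa5: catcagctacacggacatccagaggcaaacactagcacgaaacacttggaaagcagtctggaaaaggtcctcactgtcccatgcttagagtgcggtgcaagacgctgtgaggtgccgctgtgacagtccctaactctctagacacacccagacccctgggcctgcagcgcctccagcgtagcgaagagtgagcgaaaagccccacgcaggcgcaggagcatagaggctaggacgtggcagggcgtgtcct
Anxa8: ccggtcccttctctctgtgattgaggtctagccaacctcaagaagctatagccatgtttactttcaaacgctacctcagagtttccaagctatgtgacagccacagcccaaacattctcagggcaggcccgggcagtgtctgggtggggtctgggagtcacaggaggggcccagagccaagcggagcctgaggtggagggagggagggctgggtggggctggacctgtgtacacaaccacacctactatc
The AP-1 letters occurred once upstream of Anxa2, as TGAGTCA 95 to 89 bases before the start, and in none of the other 6 matched genes. Over all 32851 promoter windows of 300 bases, 7.81% held them. The core of the antioxidant response element, TGACNNNGC on either strand, was found in 12.4% of all windows and in windows of Anxa4 (GCAGGGTCA, on the minus strand, 180 to 172 bases before a start) and Anxa7 (TGACGCTGC, bases 27 to 35 after a start). The upstream stretches shown were 62.4%, 58.8% and 58.0% G and C for Anxa2, Anxa5 and Anxa8. These matches are descriptions of the letters and not of bound sites.

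On the VLF diet, 7 of 9 annexins rose in the knockout livers against the wild type and none fell (limma, adjusted p under 0.05), against 42.1% of all genes called in either direction and 19.2% called higher. The median log2 difference of the 9 genes was 1.20, and that of all genes -0.02. Anxa2 rose most, 13.4-fold, and stood 19th from the top among 18193 genes. Anxa5, Anxa3, Anxa1, Anxa7 and Anxa4 rose between 3.76- and 1.62-fold. The remaining call, Anxa13, was marginal, with 12 of 20 arrays at the floor and overlapping groups. It was called in 5 of the 10 fits that left 1 array out. Anxa6 and Anxa8 did not pass the test. In 6 of the 9 genes no knockout liver on the VLF diet overlapped the wild type on that diet, where 14.6% of all genes were separated in that direction. In these 6 the knockout livers on the VLF diet also lay above all 15 other arrays. The share of all genes with that wider separation was not counted, so it is not read as particular to the annexins. Levels below are normalised intensities on a linear scale in arbitrary units, with a floor of 16, listed in the order of the replicate numbers. Differences are on the log2 scale with the standard error of the fit.

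**Figure D1:**
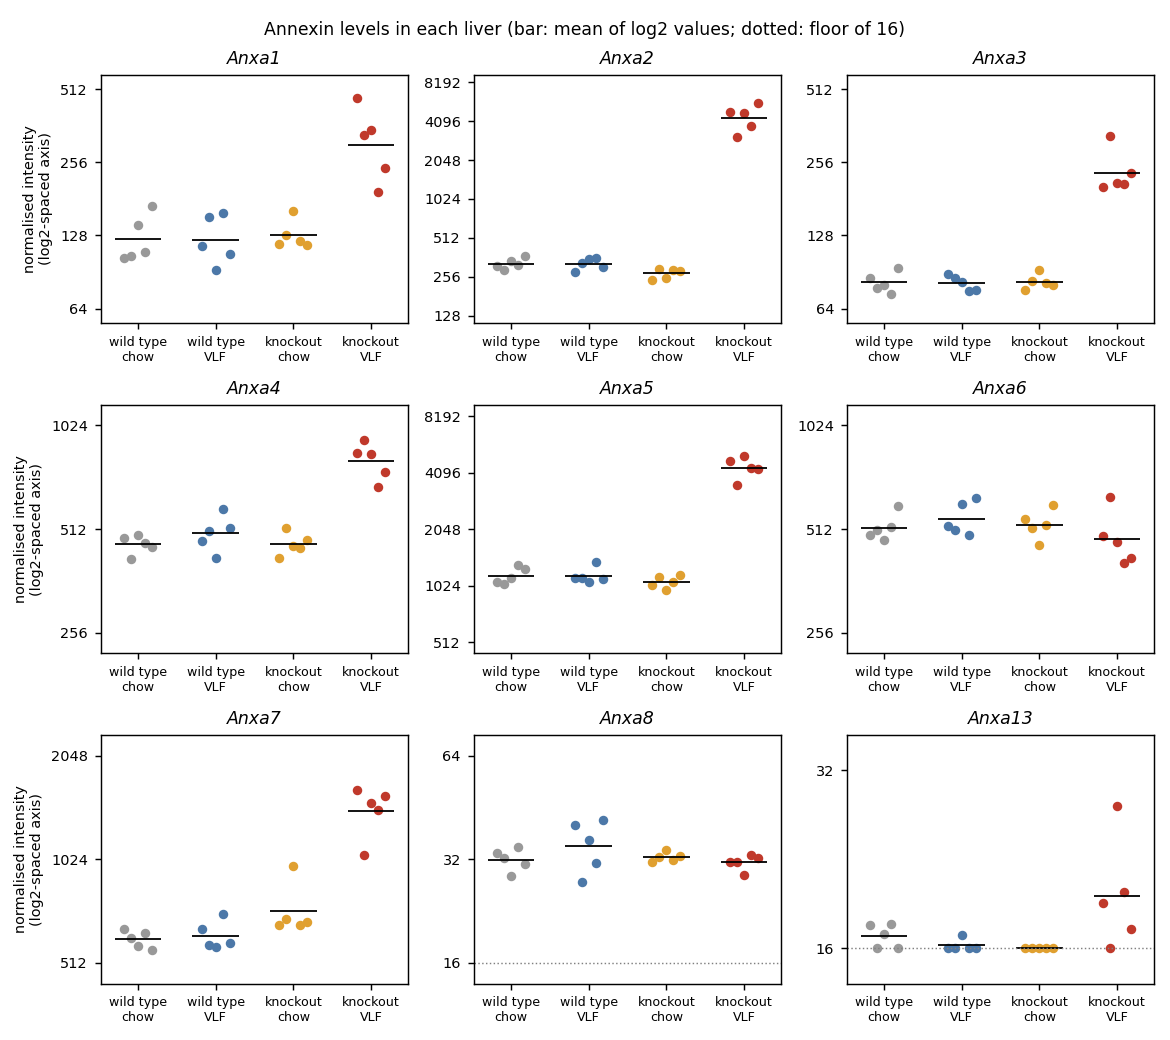
Normalised intensity (log2-spaced axis) of 9 annexins in each of 20 livers by genotype and diet, with a bar at the mean of the log2 values and a dotted line at the floor of 16. For Anxa1, Anxa2, Anxa3, Anxa4, Anxa5 and Anxa7 the 5 knockout livers on the VLF diet sit above all 15 others, while Anxa6 and Anxa8 overlap throughout.

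Anxa2 forms a tetramer with S100a10 that binds plasminogen and the actin cortex. Its intensities were 4837, 3097, 4722, 3773 and 5629 in the knockout livers on the VLF diet and 279.9, 327, 354, 355 and 306 in the wild type on that diet. On chow they were 242, 294, 250.4, 289 and 283 in the knockout and 310.2, 288, 336, 314 and 370.0 in the wild type. The lowest knockout liver on the VLF diet lay far above every other array, and the remaining 3 groups overlapped each other. The log2 difference on the VLF diet was 3.74 ± 0.13 (limma adjusted p = 2.53e-13), with group means of 4411 ± 987 against 324 ± 32.1 (SD, n = 5 each). Within the knockout the diet difference was 3.99 ± 0.13, a 15.9-fold rise (limma adjusted p = 9e-14). Both comparisons share the knockout VLF livers and are not independent.

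Anxa5 binds exposed phosphatidylserine, for which the labelled protein is the standard stain of dying cells. It read 4714, 3519, 4989.8, 4312 and 4303 in the knockout and 1130.5, 1120.2, 1067, 1364 and 1116 in the wild type, both on the VLF diet. The chow livers read 1028, 1137, 972, 1074 and 1171 in the knockout and 1068, 1039, 1129, 1313 and 1254 in the wild type. All 15 livers outside the knockout VLF group thus lay within a 1.40-fold range, below the lowest of that group. Anxa5 was 3.76-fold higher in the VLF-fed knockout (log2 difference 1.91 ± 0.09, limma adjusted p = 2.15e-11).

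Anxa1, the glucocorticoid-induced annexin that signals through formyl peptide receptors and limits neutrophil entry, read 470.2, 331, 348, 193 and 242 in the knockout and 116, 152, 92.5, 158 and 107 in the wild type on the VLF diet. On chow it read 118, 129, 162, 122 and 116 in the knockout and 103, 105, 142, 109.7 and 169.6 in the wild type. The knockout VLF livers were highest but spread most, 2.44-fold from lowest to highest, and the lowest of them was close to the highest wild-type chow liver. The log2 difference on the VLF diet was 1.30 ± 0.21 (limma adjusted p = 7.68e-05), a 2.47-fold rise.

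Anxa3, which is abundant in neutrophils and in ductal epithelium, read 203, 329.6, 210.1, 208 and 230.4 in the knockout and 88.6, 85.8, 82.7, 75.3 and 76.2 in the wild type on the VLF diet. Chow values were 76.5, 83.1, 92.7, 81.2 and 80.0 in the knockout and 85.8, 77.5, 80.2, 73.7 and 94.4 in the wild type. One knockout VLF liver, replicate 2, stood above the other 4, and all 5 were clear of the other groups. Its log2 difference was 1.51 ± 0.11 (limma adjusted p = 3.53e-09), or 2.85-fold, and 1.38 without that replicate.

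Anxa7, with a long N-terminal tail that binds the penta-EF-hand protein sorcin, read 1626, 1051, 1488, 1426 and 1565 in the knockout and 643, 576, 569.5, 708 and 587 in the wild type on the VLF diet. Chow livers read 661, 689, 981, 659.6 and 672 in the knockout and 644, 605, 574, 625 and 558 in the wild type. The knockout chow livers were all above the wild-type chow livers, with replicate 3 well above its group and just under the lowest knockout VLF liver. The rise on the VLF diet was 2.30-fold (log2 1.20 ± 0.12, limma adjusted p = 1.8e-07).

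Anxa4, typical of secretory epithelia, read 850.0, 928, 847, 678 and 750.3 in the knockout and 474, 505, 422, 585 and 517 in the wild type on the VLF diet. On chow it read 423, 514, 458, 451 and 477 in the knockout and 483, 419, 492, 467 and 455 in the wild type. The step was the smallest of the 6 separated genes, 1.62-fold (log2 0.69 ± 0.09, limma adjusted p = 4.16e-06).

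Anxa13, an annexin of the gut and kidney epithelium anchored by a myristoyl group, lay at the floor on 12 of 20 arrays. It read 19.1, 16, 27.9, 19.9 and 17.2 in the knockout VLF livers and 16 in 4 of the 5 wild-type VLF livers, the fifth at 16.9, so the groups overlapped. The call was a marginal one (0.28 ± 0.10, limma adjusted p = 0.0321), and no fold is given because most arrays carry only an upper bound. It was lost without knockout VLF replicate 4 (0.28, limma adjusted p = 0.0573), and also without wild-type VLF replicate 1, 2, 4 or 5 (0.28 each, limma adjusted p = 0.058, 0.057, 0.052 and 0.0582). Without knockout VLF replicate 3, the brightest, the difference was 0.15 and was called (limma adjusted p = 0.0356). Over all settings tried, its adjusted p ran from 0.00529 to 0.124.

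Anxa6, the annexin with a doubled core, which is found on endosomes, had means of 485 ± 90.6 in the knockout and 552 ± 62.8 in the wild type on the VLF diet (SD, n = 5 each). The difference was -0.20 ± 0.11 (95% interval -0.42 to 0.03, limma adjusted p = 0.186), so a fall of more than 0.42 lies outside the interval and a small one does not. Knockout VLF replicate 2 was its highest array, at 636, and without that liver Anxa6 was called lower (-0.30, limma adjusted p = 0.0158). With arrays centred on the hybridization controls the sign turned, to 0.18 (limma adjusted p = 0.412), where the median of all genes stood at 0.10. Anxa8, an annexin of stratified epithelia, was dim, at 31.4 ± 1.56 against 35.4 ± 5.99, and differed by -0.15 ± 0.09 (95% interval -0.34 to 0.03, limma adjusted p = 0.211). It was called lower without wild-type VLF replicate 2 (-0.24, limma adjusted p = 0.0188) and with the control centring read 0.03.

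On chow none of the 9 annexins passed the test between knockout and wild type, where 2.94% of all genes did, and 1 annexin had an unadjusted p under 0.05, as did 24.3% of all genes. That gene was Anxa7, with 733 ± 139 against 601 ± 35.5 (SD, n = 5 each), a log2 difference of 0.27 ± 0.12 (limma adjusted p = 0.189). Its chow groups did not overlap, as for 2.46% of all genes in that direction, and without knockout chow replicate 3 the difference was 0.16 (limma adjusted p = 0.507), and with median scaling alone it was 0.50 (limma adjusted p = 0.0598). Anxa2 was not called on chow either, with 272 ± 23.8 in the knockout and 324 ± 31.1 in the wild type, a difference of -0.25 ± 0.13 (95% interval -0.51 to 0.01, limma adjusted p = 0.258) that read 0.01 with median scaling alone (limma adjusted p = 1). Differences of the other 7 genes lay between these values, from Anxa5 at -0.11 ± 0.09 to Anxa1 at 0.06 ± 0.21. These are the brightest probe sets. None of the 11 further sets was called on chow, where 2.63% of all probe sets were. Both other Anxa4 sets read 0.32 and 0.26 (limma adjusted p = 0.132 and 0.205), against 0.004 for the brightest. A second Anxa7 set read 0.22 and an Anxa6 set -0.24 (limma adjusted p = 0.113 and 0.203). All of these further sets named had an unadjusted p under 0.05.

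In wild-type livers the VLF diet moved no annexin past the threshold, where 1.57% of all genes were called, and 0 of the 9 had an unadjusted p under 0.05, as did 14.8% of all genes. Differences ran from -0.05 for Anxa13 to 0.13 for Anxa8, with a median of 0.00. The interval for Anxa2 was -0.26 to 0.27 and that for Anxa5 -0.19 to 0.19, so the steps seen in the knockout lie outside both intervals. In knockout livers the same diet raised 7 of 9 annexins and lowered none, where 34.7% of all genes were called and 17.1% were called higher. Log2 differences were 2.01 ± 0.09 for Anxa5, 1.49 ± 0.11 for Anxa3, 1.23 ± 0.21 for Anxa1, 0.97 ± 0.12 for Anxa7 and 0.80 ± 0.09 for Anxa4, each called by limma. Anxa13 was called at 0.30 ± 0.10 (limma adjusted p = 0.0288) with all 5 knockout chow livers at the floor, and the call was lost without knockout VLF replicate 4 (limma adjusted p = 0.0534) or knockout chow replicate 1, 2, 4 or 5 (limma adjusted p = 0.0512, 0.0511, 0.0502 and 0.051). Anxa6 read -0.14 and Anxa8 -0.05, neither called. In 6 genes the knockout livers on the VLF diet did not overlap those on chow, where 12.3% of all genes were separated upward.

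**Figure D2:**
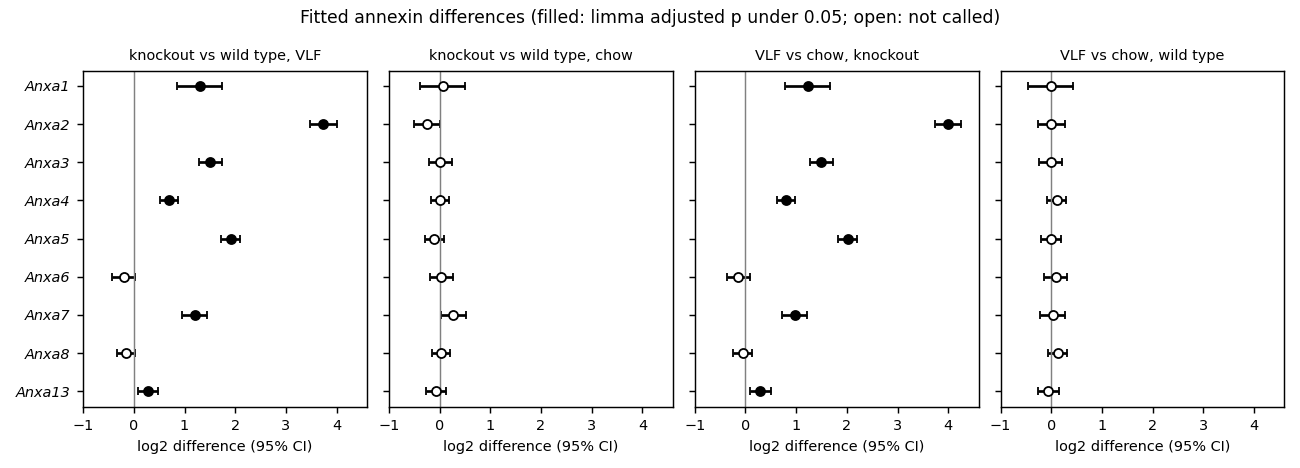
Fitted log2 differences (horizontal axis, bars are 95% confidence intervals) of 9 annexins in 4 comparisons of 5 against 5 livers, with filled points where the limma adjusted p was under 0.05. The panels for knockout against wild type on VLF and for VLF against chow in the knockout hold 7 filled points each, and the other 2 panels hold none.

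The interaction asks whether the diet acted differently in the 2 genotypes. It was positive and called for 6 of 9 annexins, where 24.2% of all genes were called and 12.1% were both called and positive. The median was 0.93 for the annexins, against 0.00 for all genes. Anxa2 had the largest interaction at 3.99 ± 0.18 (limma adjusted p = 4.92e-11), followed by Anxa5 at 2.01 ± 0.13 (limma adjusted p = 4.09e-09) and Anxa3 at 1.50 ± 0.15 (limma adjusted p = 1.07e-06). For Anxa1 it was 1.24 ± 0.30 (limma adjusted p = 0.00539), for Anxa7 0.93 ± 0.17 (limma adjusted p = 0.000391) and for Anxa4 0.69 ± 0.12 (limma adjusted p = 0.000422). Anxa13 (0.35, limma adjusted p = 0.0942), Anxa6 (-0.23, limma adjusted p = 0.431) and Anxa8 (-0.18, limma adjusted p = 0.451) were not called. Anxa13 was called without knockout VLF replicate 2 (0.42, limma adjusted p = 0.0227) or without replicate 3 of that group (0.22, limma adjusted p = 0.042).

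Probe sets of one annexin did not always give the same difference. Of the 11 further probe sets of the 9 genes, 4 were called higher, 1 lower and 6 were not called in the knockout on the VLF diet. Over all 45037 probe sets, 33.4% were called in that comparison. Both other Anxa4 probe sets rose, by 0.76 ± 0.12 and 0.58 ± 0.12 on the log2 scale, and neither overlapped between the genotypes. A second Anxa2 probe set rose by 0.46 ± 0.12 (limma adjusted p = 0.00529), from 38.3 ± 5.29 to 52.7 ± 8.61, with overlapping groups, and the third lay at the floor on all 20 arrays. For Anxa7 the other probe sets gave 0.33 ± 0.08 (limma adjusted p = 0.0032) and 0.10 ± 0.07 (limma adjusted p = 0.277). The second Anxa8 probe set, which can read several transcripts, fell by 0.20 ± 0.07 (limma adjusted p = 0.0426), with groups that did not overlap. All 3 further Anxa6 probe sets, from -0.14 to 0.10, missed the threshold. The other Anxa1 probe set read no higher than 16.1 in any group and was not called. With the mean of all probe sets of a gene in place of the brightest, Anxa2 read 1.40, Anxa1 0.65 and Anxa7 0.54, each still called. These means include the brightest set, and for Anxa1 and Anxa2 a set at or near the floor, so they are no separate support. The brightest probe sets of Anxa2, Anxa4 and Anxa5, the second Anxa2 set and both other Anxa4 sets are of types that can read more than 1 transcript. Without such sets Anxa2 keeps only the one at the floor, and Anxa4 and Anxa5 keep none, so their calls were not tested without them. For the interaction 1 of the 11 further probe sets was called, that of Anxa2 (0.57 ± 0.17, limma adjusted p = 0.0199), where 18.2% of all probe sets were. The further Anxa4 probe sets gave an interaction of 0.44 (limma adjusted p = 0.0942) and 0.32 (limma adjusted p = 0.253). Those of Anxa7 gave 0.11 (limma adjusted p = 0.73) and 0.15 (limma adjusted p = 0.37). The interaction calls of Anxa4 and Anxa7 thus rest on 1 probe set each. The calls of Anxa3 and Anxa5, with 1 probe set each, and of Anxa1, whose other set stayed near the floor, do so too. For diet in the wild type none of the 11 was called, where 1.09% of all probe sets were. Nearest to the threshold were an Anxa4 set at 0.47 ± 0.12 (limma adjusted p = 0.0765, groups overlapping), an Anxa7 set at 0.26 ± 0.08 (limma adjusted p = 0.14) and the other Anxa4 set at 0.30 ± 0.12 (limma adjusted p = 0.289), both with groups that did not overlap.

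**Figure D3:**
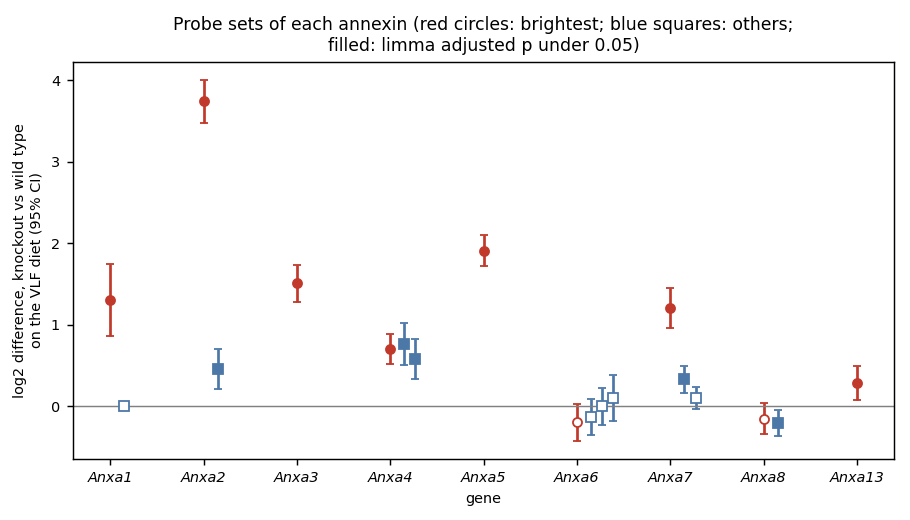
Log2 difference between knockout and wild-type livers on the VLF diet (bars are 95% confidence intervals) for the probe sets of 9 annexins, the brightest as red circles and the others as blue squares, filled where the limma adjusted p was under 0.05. The 3 Anxa4 probe sets lie together, whereas those of Anxa2 and Anxa7 lie apart, and the Anxa2 probe set at the floor on every array is not drawn.

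The 5 knockout VLF livers were not ordered alike by the annexins. Replicate 2 had the lowest Anxa2, Anxa5 and Anxa7 of its group and the highest Anxa3, Anxa4 and Anxa6. Anxa1 was highest in replicate 1 and lowest in replicate 4, which also had the lowest Anxa4. Without replicate 2, Anxa2 differed by 3.86 and Anxa5 by 1.98 from the wild type on the VLF diet. Over the 20 arrays the pairwise Pearson r among the 6 separated annexins ran from 0.84 to 0.99, a description of values in 2 clusters, the knockout VLF livers and the rest. With each group's mean removed, the 15 pairs ran from -0.61 (Anxa3 and Anxa5) to 0.63 (Anxa1 and Anxa4), with 0.62 for Anxa2 and Anxa5. These points share arrays and normalisation. Among 16187 genes, those whose log2 levels over the 20 arrays followed Anxa2 most closely were Psat1, a serine synthesis enzyme (r = 0.994), Sprr1a, a cornified envelope protein (0.993), Cdc42ep5, an effector of Cdc42 (0.993), Myl12a, a myosin light chain (0.993), and Anxa5 (0.992).

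Among partners of the annexins, 3 of the 4 S100 genes listed as annexin binders were read, and all 3 rose in the VLF-fed knockout, with a median log2 difference of 1.32. These counts and those below stand beside 19.2% of all genes called higher and 23.0% called lower in this comparison, and beside the median of all genes, -0.02. S100a6 had means of 233 and 18.5 in knockout and wild type, a difference of 3.59 ± 0.25 (limma adjusted p = 3.08e-09). S100a10, the subunit that binds Anxa2, rose by 1.20 ± 0.16 (limma adjusted p = 8.06e-06), from 1762 to 4016. S100a4 rose by 1.32 ± 0.16 (limma adjusted p = 2e-06), from 19.8 to 51.0. The wild-type means of S100a6 and S100a4 lay close to the floor, so the size of their differences may depend on it. The median of the list is the S100a4 value and carries the same limit. None of the 3 was called on chow between genotypes or by diet in the wild type, where 2.94% and 1.57% of all genes were. S100a11 had no probe set of its own.

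Of plasminogen genes, which code for the protease system that the Anxa2 and S100a10 complex gathers at the surface, 5 of 8 were read, 2 rose, 2 fell and 1 was not called, with a median of -0.20. Plaur, the urokinase receptor, rose by 1.92 ± 0.15, and Plgrkt, a plasminogen receptor, by 0.50 ± 0.14. Plg itself fell by 0.67 ± 0.04, from 10140 to 6357, and Plau, urokinase, fell by 0.24 ± 0.08. Plat, the tissue activator, differed by -0.20 and was not called.

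In the group around Anxa1, formyl peptide receptors and enzymes of lipid mediators, 6 of 9 genes were read, of which 3 rose, 1 fell and 2 were not called, with a median of 0.39. Fpr2, the receptor to which Anxa1 binds, rose by 1.43 ± 0.19 (limma adjusted p = 8.14e-06), from 40.4 to 109.9. Alox5ap, which presents arachidonate to 5-lipoxygenase, rose by 1.68 ± 0.18, and Pla2g4a, the cytosolic phospholipase that Anxa1 can inhibit, by 0.76 ± 0.20. Alox5, 5-lipoxygenase, fell by 0.27 ± 0.09.

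Penta-EF-hand proteins, the partners of Anxa7 and Anxa11, were all 5 read, of which 2 rose and 3 were not called, with a median of 0.15. Their share called is close to the 42.1% of all genes called in either direction. Capns1, the small calpain subunit, rose by 0.70 ± 0.08, and Gca, grancalcin, by 0.33 ± 0.11, with 13 of its 20 arrays at the floor. Sri, sorcin, differed by 0.15, Pef1 by 0.11 and Pdcd6 by 0.01.

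Genes of membrane repair and membrane scaffolds were all 10 read, 6 rose and none fell, with a median of 0.63. Sdcbp, syntenin, rose by 1.29 ± 0.05, Ahnak, a large scaffold that binds Anxa2 and S100a10, by 1.62 ± 0.18, and Chmp4b and Pdcd6ip, of the membrane scission machinery, by 0.86 ± 0.07 and 0.82 ± 0.07. Phosphatidylserine exposure and recognition gave 5 higher, 3 lower and 5 not called of 13, with a median of 0.20, and the share lower is close to the 23.0% of all genes. Mfge8, a bridging protein that like Anxa5 binds phosphatidylserine, rose by 2.34 ± 0.09, Plscr1, a scramblase-like protein, by 1.98 ± 0.15, and the receptors Axl and Mertk by 1.22 ± 0.12 and 0.51 ± 0.11. Actin and cortical linkers gave 7 higher, 1 lower and 2 not called of 10 (median 0.92), with Tmsb10, a thymosin, at 2.13 ± 0.13, Cfl1, cofilin, at 1.05 ± 0.06 and Tmsb4x at 0.93 ± 0.08. Rdx, radixin, fell by 1.02 ± 0.06. On chow Ano6, a scramblase of the phosphatidylserine group, was called lower in the knockout (-0.43). No other gene of these 7 lists was called there, and none by diet in the wild type, where 2.94% and 1.57% of all genes were. At such shares few calls are to be looked for in lists of this size, so this is not read as a result about them.

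**Figure D4:**
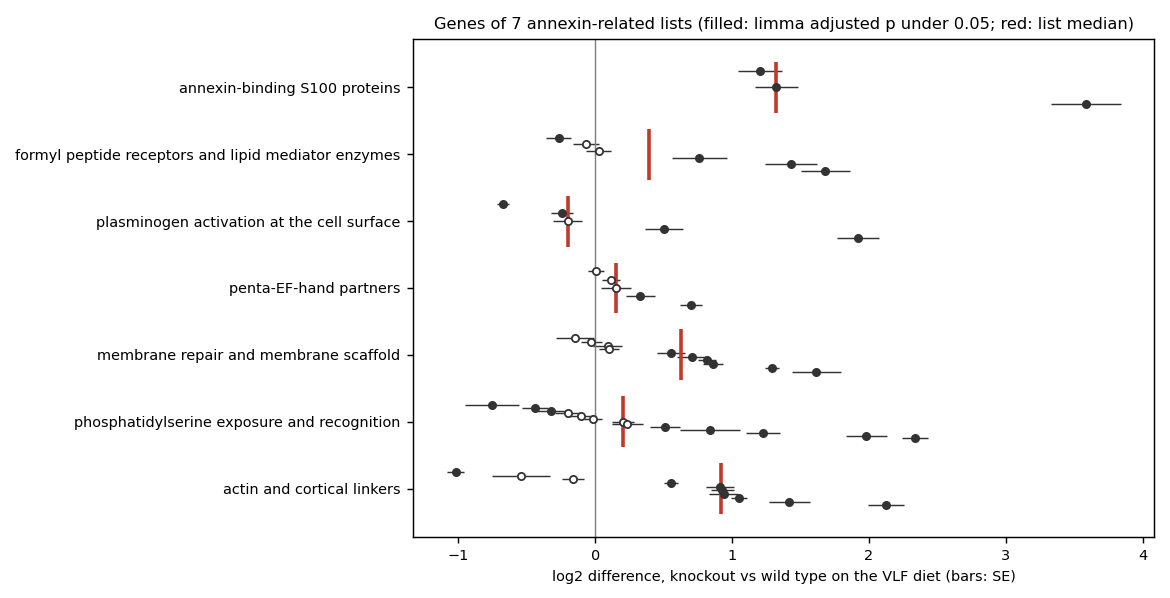
Log2 difference between knockout and wild-type livers on the VLF diet for the genes of 7 annexin-related lists, with bars for the standard error, filled points where the limma adjusted p was under 0.05 and a red mark at each list's median. The S100 list has its 3 genes above 1, and the plasminogen list has genes on both sides of 0.

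Markers of other liver cells moved in the same livers. All 10 macrophage and Kupffer cell markers rose in the knockout on the VLF diet, and their summed intensity was 15297 to 24190 there, 6229 to 7521 in the wild type on VLF, 7647 to 11359 in the knockout on chow and 7748 to 8443 in the wild type on chow. Stellate cell and fibroblast markers gave 8 higher and 1 lower of 11, with sums of 5649 to 7292 in knockout VLF livers and 3014 to 4014 elsewhere. Neutrophil markers gave 3 higher and 1 lower of 8 and summed to 1034 to 5112 in knockout VLF livers, 471 to 586 in the wild type on VLF, 532 to 1375 in the knockout on chow and 504 to 608 in the wild type on chow. Cholangiocyte markers gave 2 higher of 5, Sox9 and Cldn4, while Krt7, Krt19 and Epcam were not called, Cftr was at the floor throughout, and the sums were 364 to 462 in knockout VLF livers, 289 to 340 in the wild type on VLF, 201 to 299 in the knockout on chow and 286 to 374 in the wild type on chow. Hepatocyte markers gave 3 lower of 8 and sinusoidal endothelial markers 1 higher and 4 lower of 8. Lymphocyte (2 lower of 7), mesothelial (2 lower of 5) and blood cell (3 lower of 3) markers gave no gene that rose. The part of these cell types in the annexin differences was not tested, and in whole liver more cells of a type and more RNA per cell cannot be told apart.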

How the data were processed

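The value table holds 1 signal per probe set and array, a linear intensity deposited by the authors (columns with medians of 32.2 to 36.6). MAS5 and RMA are named in the submitters' processing notes without their roles. Each of the 20 arrays was multiplied to give the same median, values under 16 were set to 16, and log2 values were quantile-normalised. After 64 control probe sets were removed, 45037 remained, of which 9114 were at the floor on every array. A model with 1 mean per group (limma 3.58.1, R 4.3.3; residual df 16, prior df 1.94) gave 5 comparisons, with Benjamini-Hochberg adjustment over all probe sets and a call at adjusted p under 0.05. Symbols came from the array's annotation, updated through RefSeq: 34945 probe sets have 1 gene, 932 several and 9160 none. Probe sets with several genes were named for none.

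Named are the annexins, up to 4 genes of each list with the smallest adjusted p on the VLF diet (all genes of a list of 5 or fewer), and the 5 genes closest to Anxa2 by Pearson r. The members and lists were chosen with earlier results of these data known. The sample titles number the replicates, and each was taken as a separate liver. Same-numbered livers of different groups showed no common deviation (correlations of residuals from -0.26 to 0.27), so the main fit used no pairing. Correlations of this size cannot exclude a weak link between same-numbered livers. Alternatives were other scalings, floors, filters, probe set rules, priors, a replicate block and each array left out. Arrays give no read depth, so their number limits the precision. Figures were drawn with matplotlib 3.10.9 in Python 3.11.15.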

Additional observations from a re-analysis of the deposited data

Results flagged for a closer look

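Of the 35 combinations of an annexin and a group with any spread, 4 held an array far from its group by Dixon's gap test, where chance gives about 1 in 20. They were Anxa3 in knockout VLF replicate 2, at 329.6, Anxa7 in knockout chow replicate 3, at 981, Anxa5 in wild-type VLF replicate 4, at 1364, and Anxa13 in wild-type VLF replicate 3, at 16.9, the only array of that group above the floor, so that the floor alone sets its gap.

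The effect of the diet differed between the genotypes, by limma's interaction term, for 6 of 9 annexins read by their brightest probe sets. They were Anxa2 (3.99 on the log2 scale), Anxa5 (2.01), Anxa3 (1.50), Anxa1 (1.24), Anxa7 (0.93) and Anxa4 (0.69). Over all genes 24.2% were called for the interaction and 12.1% were both called and positive. A further probe set was called for Anxa2 only, so each of the other calls rests on 1 probe set.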

How the results depend on the processing

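Counts of called annexins, in either direction, stayed within 1.5 times the reported ones under every alternative run. With 9 genes read, counts of 6 or 7 could not rise past that. They were 6 to 8 for knockout against wild type on VLF, 6 to 7 for diet in the knockout and 5 to 7 for the interaction. They were 0 on chow and for diet in the wild type. On VLF, where 8 were called, 7 were higher and 1 lower. A floor of 32 gave 6 higher and 1 lower of 8 read, as did leaving out wild-type VLF replicate 2, of 9. Without dim probe sets 6 of 7 were higher. Anxa1, Anxa2, Anxa3, Anxa4, Anxa5 and Anxa7 were called higher on VLF in every alternative that gave them a value; Anxa2 has none once probe sets that may read more than 1 transcript are left out, and Anxa4 and Anxa5, which have only such sets, kept them there. With the replicate block the counts were 7, 0, 0, 7 and 6, in the order VLF genotype, chow genotype, wild-type diet, knockout diet and interaction, and 2 of 20 arrays correlated best with their own number. Anxa13 was not called on VLF with median scaling alone (0.26, limma adjusted p = 0.0552) or with only the compared groups fitted (0.28, limma adjusted p = 0.124, and 0.30, limma adjusted p = 0.128, for diet in the knockout), and its interaction was called with control centring (0.53, limma adjusted p = 0.0134) and with 16 added before log2 (0.26, limma adjusted p = 0.0435). Anxa8 was called lower on VLF with a floor of 32 (-0.17, limma adjusted p = 0.0471) and with the mean of its probe sets (-0.18, limma adjusted p = 0.0226). Anxa13 gave no value at a floor of 32, and Anxa8 and Anxa13 were removed by the filter on dim probe sets. Over all genes, control centring moved the median difference to 0.10 on VLF, 0.27 for diet in the knockout and 0.29 for the interaction. It turned 3491 higher and 4177 lower genes on VLF into 5092 and 957, 3108 and 3213 for diet in the knockout into 6798 and 871, and 2206 and 2197 for the interaction into 3965 and 618. Median scaling alone gave 4157 and 3109 on VLF, 1258 and 234 in place of 224 and 310 on chow, and 118 and 57 in place of 143 and 142 for diet in the wild type. The 534 genes called on chow became 1492 with median scaling, 3 with control centring, 1316 without dim probe sets and 260 with the block. The 285 called for diet in the wild type became 175 with median scaling and 50 with control centring. Causes were not tested. Signals near the floor limit what can be said of Anxa8 and Anxa13.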
